A study of Homo sapiens with 8 samples.

Results

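The genes described here were 10 early response genes outside the AP-1 family, taken from the count table by their symbols. They were EGR1 and EGR3, which encode zinc finger transcription factors, the immediate early response genes IER2, IER3 and IER5, the antiproliferative genes BTG1 and BTG2, and ZFP36, ZFP36L1 and ZFP36L2, which encode proteins that bind AU-rich elements in RNA. The table held 23459 genes, of which 13925 had enough counts to be tested, and all 10 of these genes were among the genes tested. The RNA came from Hct116 cells, in 8 total RNA libraries, and Hct116 is an established human colorectal carcinoma line. Of these, 4 libraries came from cells that had received 30 μM lenalidomide, a drug that binds the CRBN subunit of a ubiquitin ligase, and 4 from cells given the solvent DMSO, each harvested at 16 h. The labels name no transgene or deletion, and by them the treatments differ in the drug alone. According to the methods of the study, drug or solvent was added as the cells were moved to medium with isotope-labelled amino acids, and the labels were swapped in part of the replicates. The sample labels do not say which RNA libraries these are, so this division was not examined. RNA was measured to learn whether the drug altered transcript levels in cultures that were also used for proteomics.

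Early response genes are transcribed within minutes of a growth factor or stress signal, largely through factors that are already in the cell, such as SRF and its ternary complex partners downstream of the kinase ERK. Their transcripts are mostly short-lived, and part of this comes from AU-rich elements in the 3′ UTR. The ZFP36 proteins bind such elements and recruit the CCR4-NOT deadenylase, which shortens the poly(A) tail, and BTG1 and BTG2 bind a catalytic subunit of the same complex. The 10 genes therefore hold regulators of transcription as well as regulators of RNA decay.

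Libraries of DMSO-treated cells held between 35268940 and 37473413 counts, and those of lenalidomide-treated cells between 28218471 and 33659982, so that every DMSO library was deeper. Levels are given in CPM, read counts set relative to the library total after correction by a TMM factor that lay between 0.971 and 1.02. Within a treatment, all 12 pairs of libraries differed beyond counting error (chi-square over its degrees of freedom, 5.55 to 24.1), so none was a copy of another. The series calls the replicates biological, and so do the study's figure legends for the RNA and the protein comparisons. The methods of the study use the word technical for the matching protein samples. The p-values measure the spread between these libraries, whichever it is. All 8 epithelial markers were present, with a summed level of 2431 to 2737 CPM with DMSO and 2359 to 2692 CPM with lenalidomide. Markers of leukocytes, endothelium and fibroblasts summed to 9.58 to 10.9 CPM with DMSO and 9.85 to 12.5 CPM with lenalidomide. Of these 8 markers, 4 were too low to be tested. Among them were the leukocyte genes PTPRC, with at most 6 counts in a library, and CD3E, with 0 in every DMSO library and at most 2 elsewhere. The markers tested were CD68, also of leukocytes, at 4.53 CPM with DMSO and 4.88 CPM with lenalidomide, and COL1A1 at 2.98 and 2.97 CPM. ACTA2 had 2.38 and 2.57 CPM and VWF 0.309 and 0.424 CPM in the same order.

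Of the 10 genes, 0 passed the threshold of 0.05 in the quasi-likelihood test of edgeR after Benjamini-Hochberg adjustment over all genes tested, the background being 0.0144%, or 2 of 13925 genes. DESeq2 also called 0 of them. EGR1, IER2, IER3 and ZFP36 had an unadjusted p under 0.05 in the edgeR test, and all 4 were lower with lenalidomide. Over all genes tested, 0.919% had an unadjusted p under 0.05 and were lower, and 3.26% were higher. IER5, BTG1 and BTG2 and the pair ZFP36L1 and ZFP36L2 lay within 0.074 of 0 on the log2 scale. In 2 of the 10 genes, IER2 and IER3, every lenalidomide library was below every DMSO library, against 0.84% of all genes tested. The reverse, with every lenalidomide library above, was found in 0 of the 10 and in 1.24% of all genes. Since the treatments were compared in bulk RNA, a lower level in all cells and the loss of the transcript from some of the cells cannot be told apart.

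**Figure D1:**
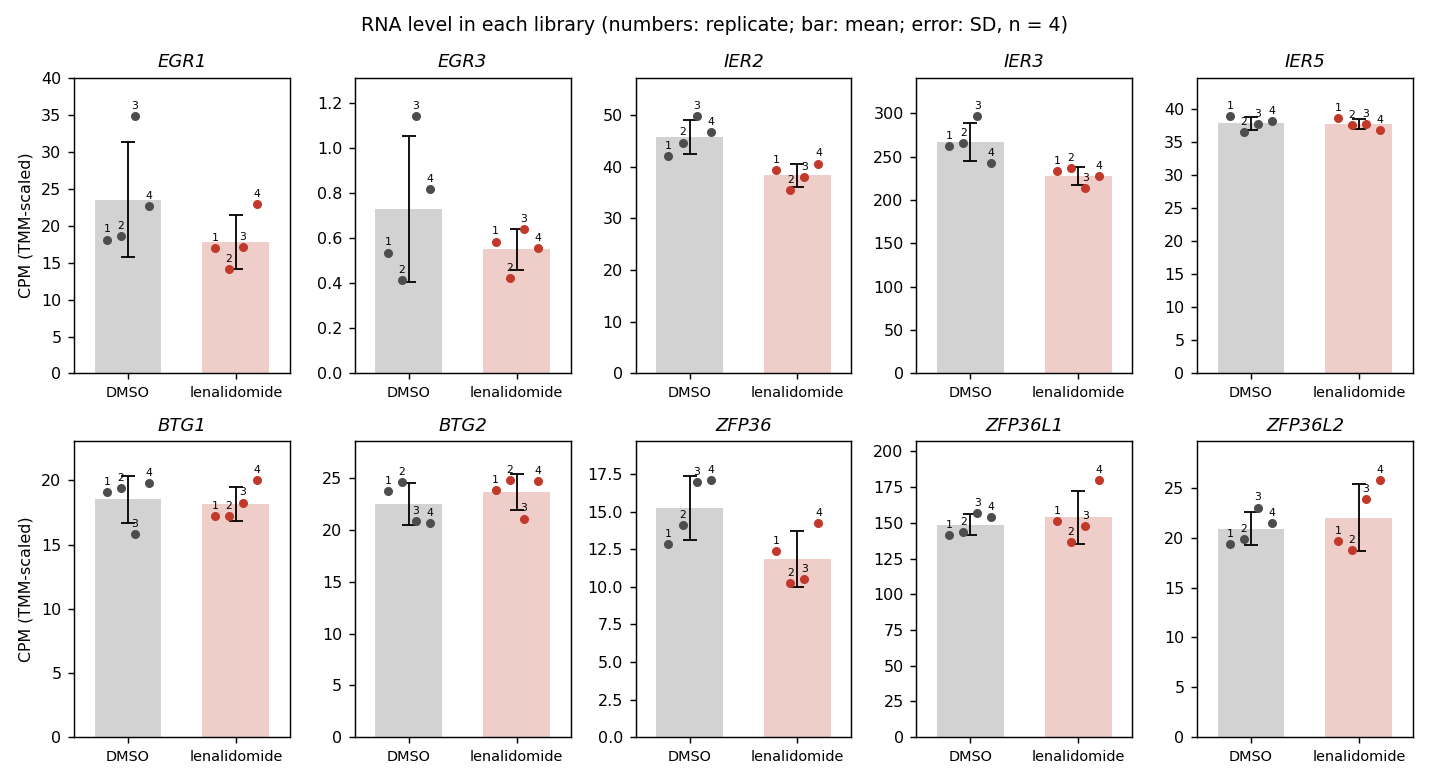
RNA level of each of the 10 genes in CPM (vertical axis, starting at 0) in the 4 DMSO and the 4 lenalidomide libraries. Points are libraries numbered by replicate, bars the mean and error bars the SD (n = 4). IER2 and IER3 show no overlap between treatments, and EGR1 reaches 34.8 CPM in DMSO replicate 3.

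EGR1 (Entrez gene 1958) is the best-known gene of the EGR family and spans 137801168 to 137804992 of chromosome 5 (GRCh37), plus strand. It was measured at 18.1, 18.6, 34.8 and 22.6 CPM in DMSO replicates 1 to 4 and at 17.0, 14.1, 17.1 and 22.9 CPM in the lenalidomide replicates. The third DMSO library stood well above the other three, 3 of the 4 lenalidomide values were below the lowest DMSO value, and the remaining one lay among the DMSO values. DMSO libraries averaged 23.5 ± 7.79 CPM and lenalidomide libraries 17.8 ± 3.70 CPM (SD, n = 4 each). The log2 fold change was -0.41 (standard error 0.187, 95% confidence interval -0.81 to -0.0049, unadjusted p = 0.0476 and adjusted p = 0.999 by edgeR). An exact permutation test of the 8 values gave p = 0.171 (two-sided). Without DMSO replicate 3 the log2 fold change was -0.16 with an unadjusted p of 0.247 in the same edgeR test, and an unadjusted p under 0.05 was kept in 7 of 15 alternatives. Between replicates EGR1 varied more than 98.8% of all genes tested, with a within-treatment SD of 0.36 on the log2 scale against a median of 0.11.

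The promoter of EGR1 is shown because CArG boxes, the sites to which SRF binds, define the best-studied control region of this family. The window runs from 250 bases before to 50 bases after the RefSeq start site, at chr5:138465229-138465528 of GRCh38.p14, on the plus strand, with the CArG boxes in capitals.
EGR1 promoter: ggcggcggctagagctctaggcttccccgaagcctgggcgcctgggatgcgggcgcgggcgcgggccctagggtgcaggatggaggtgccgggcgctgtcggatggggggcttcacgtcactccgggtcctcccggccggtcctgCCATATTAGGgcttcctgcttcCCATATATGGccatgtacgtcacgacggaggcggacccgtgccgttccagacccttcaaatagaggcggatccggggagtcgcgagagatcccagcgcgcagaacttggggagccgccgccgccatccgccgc
CArG boxes, searched on both strands, began 105 and 83 bases before the start site. Such a box was found in 1.29% of 35116 promoter windows of this length, and in 1 of the 7 genes described here that had a window (BTG1, BTG2, EGR1, IER2, IER5, ZFP36 and ZFP36L1, the last with a pair of windows). The cyclic AMP response element TGACGTCA, searched likewise, began 52 bases before a start site of ZFP36L1 and was in 1.85% of all windows. A TATA box, TATAAA on either strand, began 33 bases before that of BTG1 and was in 11.5%.

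EGR3 (Entrez gene 1960), a relative of EGR1, had few counts. It spans 22545172 to 22550993 of chromosome 8 (GRCh37), minus strand, where an lncRNA on the opposite strand overlaps it. The DMSO libraries gave 0.535, 0.414, 1.14 and 0.818 CPM and the lenalidomide libraries 0.584, 0.422, 0.639 and 0.555 CPM, from 14 to 39 counts. All 4 lenalidomide values lay within the range of the DMSO values, whose highest was again that of DMSO replicate 3. The log2 fold change of -0.39 had a 95% confidence interval of -1.06 to 0.27 (unadjusted p = 0.225 by edgeR). It was -0.11 without DMSO replicate 3 and -0.59 without DMSO replicate 2. Of the other EGR genes, EGR2 averaged 0.720 ± 0.408 CPM in DMSO and 0.522 ± 0.160 CPM in lenalidomide libraries (SD, n = 4 each), and EGR4 had at most 3 counts in a library.

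IER2 (Entrez gene 9592) encodes a small nuclear protein that takes part in transcriptional control, and had the smallest p of the 10 genes. Its levels were 42.0, 44.7, 49.8 and 46.6 CPM in the DMSO replicates and 39.3, 35.5, 38.1 and 40.6 CPM in the lenalidomide replicates. All 4 lenalidomide libraries were below all DMSO libraries (two-sided exact permutation test, p = 0.0286, the smallest that 4 against 4 samples allow). The mean went from 45.8 ± 3.27 CPM (SD, n = 4) to 38.4 ± 2.20 CPM (SD, n = 4), a log2 fold change of -0.26 (standard error 0.0644, 95% confidence interval -0.39 to -0.12). The unadjusted p of 0.00143 placed IER2 at rank 21 of all genes tested, and became 0.951 on adjustment (edgeR). Leaving out each library in turn gave log2 fold changes between -0.30 and -0.22. IER2 spans 13261225 to 13265725 of chromosome 19 (GRCh37), plus strand, with 2 overlapping lncRNAs on the opposite strand. Since the strand setting of the counting is not stated, reads of such partners cannot be told from those of the gene.

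IER3 (Entrez gene 8870), also known as IEX-1, encodes a stress-induced regulator of cell survival and was the most abundant of the 10 in CPM. It reached 263, 266, 297 and 243 CPM with DMSO and 233, 237, 214 and 228 CPM with lenalidomide, again without overlap (two-sided exact permutation test, p = 0.0286). Means were 267 ± 22.3 CPM for DMSO and 228 ± 10.3 CPM for lenalidomide (SD, n = 4 each). The log2 fold change was -0.23 (standard error 0.0643, 95% confidence interval -0.37 to -0.090) and the edgeR p was 0.00325, or 0.999 adjusted. IER3 spans 30710976 to 30712325 of chromosome 6 (GRCh37), minus strand, and HCG20 and IER3-AS1 overlap it on the opposite strand. The table gives it an exonic width of 7440 bases, 6.01 times the length of its canonical transcript, so its level per length was not set against that of other genes. Its region is part of the major histocompatibility complex, which the hg19 assembly also holds as alternative haplotype sequences, and whether the counted width includes these was not tested.

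IER5 (Entrez gene 51278), an intronless relative of IER2 linked to the heat shock response, stood at nearly the same level in both treatments. It was measured at 38.9, 36.5, 37.7 and 38.1 CPM with DMSO and at 38.7, 37.6, 37.7 and 36.7 CPM with lenalidomide. The values of both treatments interleave within a narrow band, and only 1.01% of all genes tested varied as little or less between replicates. At -0.0047, its log2 fold change had the narrowest 95% confidence interval of the 10, from -0.11 to 0.10. IER5 spans 181057836 to 181062036 of chromosome 1 (GRCh37), plus strand. Its exonic width in the table, 2342 bases, is 0.557 of the canonical transcript of 4201 bases.

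The IER genes were also compared with each other within each library, where library size and scaling cancel. The log2 ratio of IER3 to IER5 was 2.82 ± 0.133 (SD, n = 4) with DMSO and 2.60 ± 0.0690 (SD, n = 4) with lenalidomide, a difference of -0.22 without overlap between treatments. For IER2 over IER5 the difference was -0.25 with overlapping values. These gave p = 0.0286 and p = 0.0571 by two-sided exact permutation tests, and 0.0762 and 0.114 after Benjamini-Hochberg adjustment over the 8 ratios compared among the 10 genes. IER2 over IER3 differed by -0.028 ± 0.0826 (standard error) between treatments (exact permutation test, p = 0.686). The log2 fold change of IER5 was -0.0047, so the ratios over IER5 largely repeat those of IER3 (-0.23) and IER2 (-0.26) alone. These ratios were chosen after the values of the single genes had been seen.

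**Figure D2:**
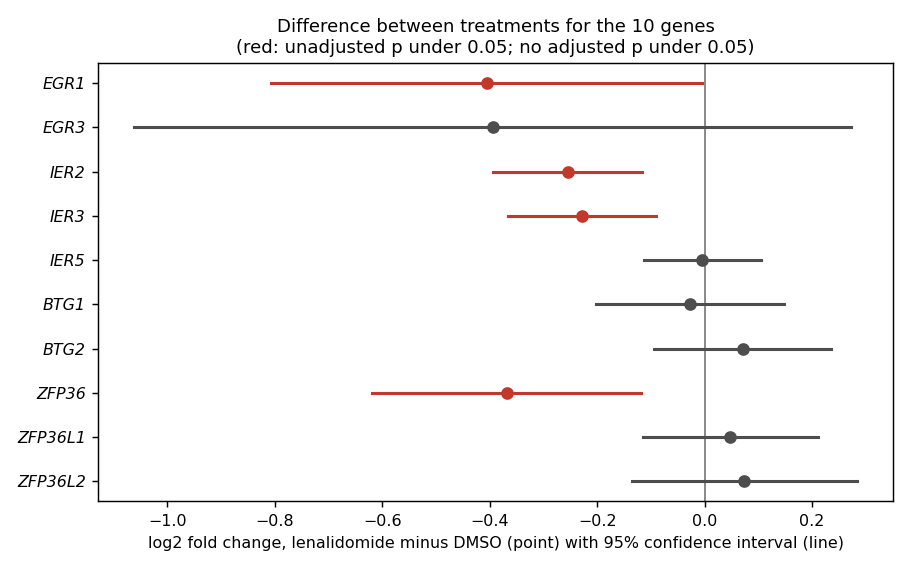
Log2 fold change of lenalidomide minus DMSO (horizontal axis, points) with its 95% confidence interval (lines) for the 10 genes. The intervals of EGR1, IER2, IER3 and ZFP36, in red, lie below 0 without adjustment for the number of genes, and those of the other 6 include 0.

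BTG1 (Entrez gene 694) and BTG2 (Entrez gene 7832) encode adaptors that restrain proliferation, and BTG2 is a known target of p53. BTG1 was measured at 19.1, 19.4, 15.8 and 19.8 CPM with DMSO and at 17.2, 17.3, 18.3 and 20.0 CPM with lenalidomide. Every lenalidomide value apart from that of replicate 4 lay inside the DMSO range, whose low end was set by DMSO replicate 3. BTG2 gave 23.7, 24.6, 20.9 and 20.7 CPM with DMSO and 23.8, 24.8, 21.1 and 24.7 CPM with lenalidomide, so that the treatments overlapped almost entirely. Log2 fold changes were -0.027 (95% confidence interval -0.20 to 0.15) for BTG1 and 0.071 (-0.094 to 0.24) for BTG2. The log2 ratio of BTG1 to BTG2 differed between treatments by -0.095 ± 0.104 (standard error, exact permutation test p = 0.429). BTG1 spans 92534054 to 92539622 of chromosome 12 (GRCh37), minus strand, where it overlaps LINC01619 on the same and BTG1-DT on the opposite strand, and BTG2 spans 203274619 to 203278730 of chromosome 1, plus strand.

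ZFP36 (Entrez gene 7538), which encodes tristetraprolin, was the member of its family with lower values in lenalidomide libraries. They were 12.8, 14.1, 16.9 and 17.1 CPM in the DMSO replicates and 12.4, 10.2, 10.5 and 14.2 CPM in the lenalidomide replicates. Below the lowest DMSO value lay 3 of the 4 lenalidomide values, and the remaining one was close to that of DMSO replicate 2. On average this was 15.3 ± 2.12 CPM for DMSO and 11.8 ± 1.85 CPM for lenalidomide (SD, n = 4 each). The log2 fold change was -0.37 (standard error 0.117, 95% confidence interval -0.62 to -0.12). The edgeR p was 0.00706, or 0.999 adjusted, and p = 0.0857 was obtained by the two-sided exact permutation test. Omitting single libraries moved the log2 fold change between -0.47 and -0.30. ZFP36 spans 39897487 to 39900052 of chromosome 19 (GRCh37), plus strand.

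ZFP36L1 (Entrez gene 677) was by far the most abundant family member, at 141, 144, 157 and 154 CPM with DMSO and 151, 136, 148 and 180.0 CPM with lenalidomide. ZFP36L2 (Entrez gene 678) was measured at 19.3, 19.9, 23.0 and 21.4 CPM with DMSO and 19.7, 18.8, 23.9 and 25.8 CPM with lenalidomide. In both genes lenalidomide replicate 4 was the highest and lenalidomide replicate 2 the lowest of all libraries. The log2 fold changes were 0.047 (95% confidence interval -0.12 to 0.21) for ZFP36L1 and 0.074 (-0.14 to 0.28) for ZFP36L2. Without lenalidomide replicate 4 they were -0.037 and -0.0095, so that both signs turned on that library. ZFP36L1 spans 69254377 to 69262970 of chromosome 14 and ZFP36L2 43449541 to 43453745 of chromosome 2 (GRCh37), both on the minus strand and each overlapped by an lncRNA, on the same strand for ZFP36L1 and on the opposite strand for ZFP36L2.

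Expressed as shares of the family, with each level divided by the exonic width in the table, ZFP36 made up 16.9 ± 1.25% (SD, n = 4) of the RNA of the 3 genes with DMSO and 13.3 ± 0.817% (SD, n = 4) with lenalidomide. The lowest DMSO share was 15.4% and the highest lenalidomide share 14.2% (two-sided exact permutation test, p = 0.0286). ZFP36L1 held 72.0 ± 1.28% and 75.0 ± 0.455% (SD, n = 4 each, p = 0.0286 by the same exact test), and ZFP36L2 held 11.1% and 11.7% (exact permutation test, p = 0.314). The summed level of the 3 genes was 51.2 ± 3.50 CPM per kb (SD, n = 4) with DMSO and 50.8 ± 6.33 CPM per kb (SD, n = 4) with lenalidomide. Shares of a library add up to the whole, so the higher ZFP36L1 share is not a result apart from the lower ZFP36 share. Shares also depend on the widths used, and that of ZFP36L1 is 1.34 times the length of its canonical transcript. As within-library log2 ratios, ZFP36 over ZFP36L1 differed by -0.41 ± 0.0793 (standard error) and ZFP36 over ZFP36L2 by -0.43 ± 0.120 between treatments, both without overlap. Each had p = 0.0286 by the exact permutation test and 0.0762 after adjustment over the 8 ratios. These shares and ratios were chosen after the values of the single genes had been seen.

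**Figure D3:**
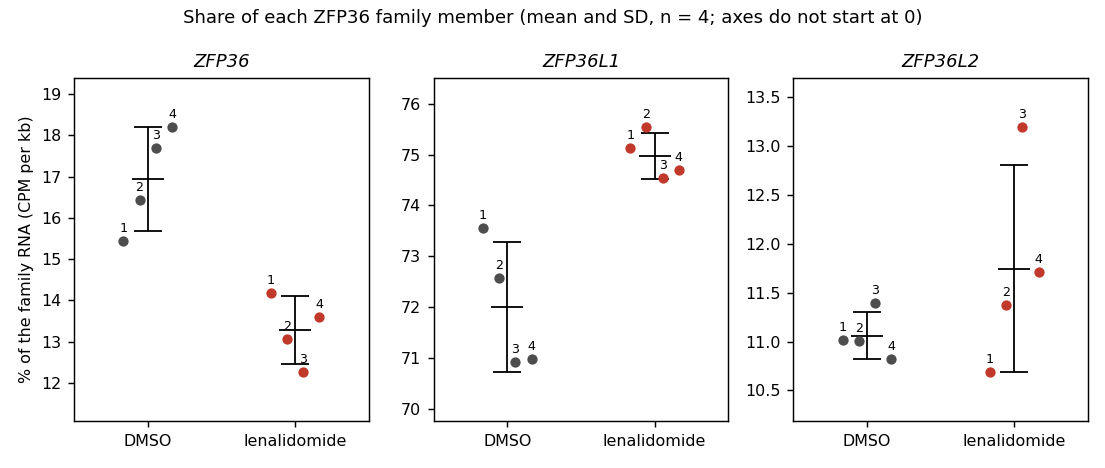
Share of ZFP36, ZFP36L1 and ZFP36L2 in the summed CPM per kb of the 3 genes, in percent (vertical axes, which do not start at 0), in each library. Points are libraries numbered by replicate, with the mean and SD (n = 4). The ZFP36 share lies between 15.4% and 18.2% with DMSO and between 12.3% and 14.2% with lenalidomide.

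AU-rich elements of the genes themselves are shown because ZFP36 proteins bind them, those of the ZFP36 family transcripts included. Each line below is 29 bases of the 3′ UTR of the canonical transcript on GRCh37, in the sense of the gene, with the heptamer TATTTAT in capitals. The heptamer was searched on the sense strand alone, and overlapping matches were counted.
ZFP36 chr19:39899821-39899849 (plus strand): aatgggcccttTATTTATgacgactttat
ZFP36 chr19:39899836-39899864 (plus strand): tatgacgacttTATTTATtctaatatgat
ZFP36 chr19:39899861-39899889 (plus strand): tgattttatagTATTTATatatattgggt
IER3 chr6:30711430-30711458 (minus strand): ctcctaattaaTATTTATatgtatttatg
IER3 chr6:30711420-30711448 (minus strand): atatttatatgTATTTATgtacgtcctcc
IER3 chr6:30711378-30711406 (minus strand): tgtgtacgtaaTATTTATtttaacttatg
IER3 chr6:30711315-30711343 (minus strand): aggtctcttggTATTTATtgagctttgtg
ZFP36L1 chr14:69255053-69255081 (minus strand): ttatcaaaacgTATTTATtgccaaactat
ZFP36L1 chr14:69255011-69255039 (minus strand): aattttgttcaTATTTATcgggatgacaa
ZFP36L1 chr14:69254794-69254822 (minus strand): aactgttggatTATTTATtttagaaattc
IER3 and IER5 held 4 such heptamers each, ZFP36, ZFP36L1 and ZFP36L2 held 3 each, BTG1 and BTG2 held 1 each, and EGR1, EGR3 and IER2 held none. A heptamer was thus present in 7 of the 10 genes and in 31.5% of 19403 annotated 3′ UTRs. Among 3′ UTRs within 10% of the same length, as many heptamers were found in 0.728% for IER3, 1.48% for ZFP36, 3.86% for IER5, 4.92% for ZFP36L1 and 5.16% for ZFP36L2. For BTG1 and BTG2 the same shares were 61.9% and 42.4%. The heptamers of IER5 began 2105 to 2576 bases after its stop codon, while its counted width was 2342 bases. Whether the counted width holds them was not tested. The 4 genes with an unadjusted p under 0.05 held 0 (EGR1 and IER2), 3 (ZFP36) and 4 (IER3) heptamers, and the other 6 held from 0 to 4.

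Levels per length can be compared between the genes, apart from IER3. With DMSO, ZFP36L1 was the highest at 36.8 ± 1.88 CPM per kb, followed by IER2 at 22.4 ± 1.60 and IER5 at 16.1 ± 0.433 CPM per kb (SD, n = 4 each). ZFP36 at 8.70 ± 1.21, BTG2 at 8.29 ± 0.742 and EGR1 at 7.50 ± 2.48 CPM per kb came next and overlapped in their ranges. ZFP36L2 followed at 5.66 ± 0.450 CPM per kb, its highest values inside the range of EGR1, then BTG1 at 3.96 ± 0.391 and EGR3 at 0.161 ± 0.0718 CPM per kb. With the same counts divided by the length of the canonical transcript, IER5 came to 9.00 and ZFP36L1 to 49.3 CPM per kb. Reads outside the counted width of IER5 were not included, so its 9.00 is not a level over the whole transcript. This value lay below IER2 and inside the DMSO range of ZFP36, 7.33 to 9.76 CPM per kb.

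Libraries of the same treatment differed in these genes, though not in the same direction for each. DMSO replicate 3 was the highest DMSO library in 6 of the 10 genes and the lowest in 1, BTG1, with the lowest TMM factor of 0.971. Lenalidomide replicate 4 was the highest lenalidomide library in 6 genes and the lowest in 1, with the smallest total and a TMM factor of 1.02. Lenalidomide replicate 2 was the lowest in 6 and the highest in 2. The same counts were not made over all genes tested. With all libraries thinned to the smallest total, and with RLE in place of TMM scaling, EGR1, IER2, IER3 and ZFP36 stayed below 0 and the median of the 10 genes was -0.13 each time. The median deviation of the 10 genes from the DMSO mean lay between -0.091 and 0.13 in the DMSO libraries and between -0.16 and -0.013 in the lenalidomide libraries, on the log2 scale. Between single libraries of a treatment, this median deviation had an SD of 0.082. The median log2 fold change of the 10 was -0.13, and the median of all genes tested was 0.0025. The SD of 0.082 is not the error of that fold change, which compares means of 4 libraries. Of the 10 genes 7 were below 0, and of all genes tested 48.7%.

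**Figure D4:**
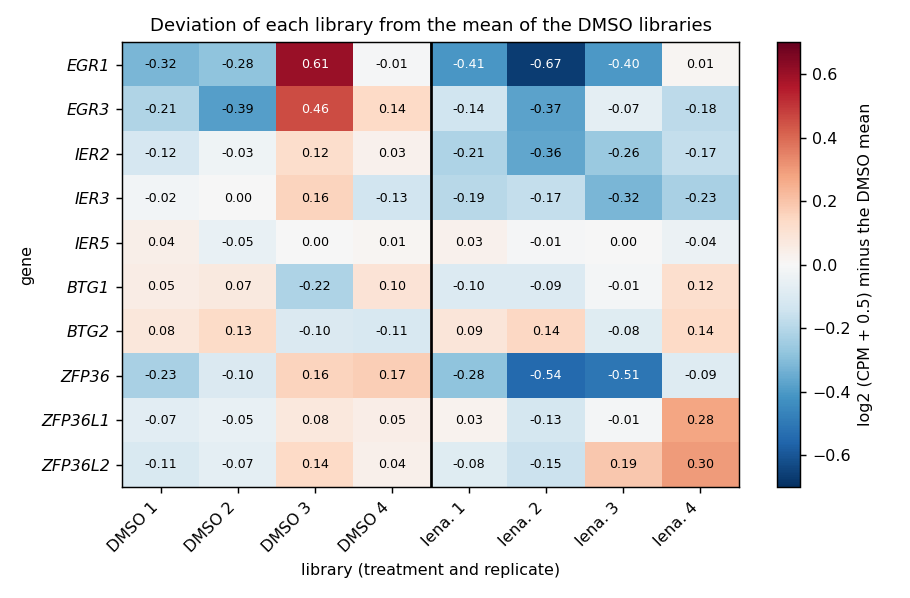
Log2 (CPM + 0.5) of each gene (rows) in each library (columns, lena. for lenalidomide) minus the mean of the 4 DMSO libraries, printed in each cell and coloured from blue (lower) to red (higher). EGR1 ranges from -0.67 in lenalidomide replicate 2 to 0.61 in DMSO replicate 3, whereas IER5 stays between -0.050 and 0.041.

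Pairs of these genes, with FOS and FOSB beside them, were correlated over the 8 libraries, which share their depth and scaling for every gene. Of 66 pairs, 7 had an adjusted p under 0.05 (exact permutation test of Pearson's r, Benjamini-Hochberg adjustment), and 3 of these involve IER2. The test shuffled libraries across treatments, so a treatment difference shared by both genes of a pair can by itself give such a p. The share of such pairs among other genes was not counted. ZFP36 and FOSB had r = 0.93 (exact permutation p = 0.00154, adjusted 0.0311) and Spearman's rho = 0.95 (exact permutation p = 0.00114, adjusted 0.0376). For this pair r was 0.89 without the 2 libraries farthest from the median of ZFP36, and 0.85 with treatment means removed. FOS and FOSB had r = 0.97 (exact permutation p = 7.44e-05, adjusted 0.00491) and rho = 0.98 (exact permutation p = 0.000397, adjusted 0.0262), with r = 0.95 without the 2 farthest libraries and 0.92 with treatment means removed. EGR1 and ZFP36 had r = 0.84 (exact permutation p = 0.00288, adjusted 0.0380) and Spearman's rho = 0.90 (exact permutation p = 0.00456, adjusted 0.0502). Without the 2 libraries farthest from the median of EGR1 r was 0.81, and it was 0.80 with treatment means removed. EGR3 and BTG2 ran against each other, with r = -0.84 (exact permutation p = 0.00188, adjusted 0.0311), rho = -0.81 (exact permutation p = 0.0218, adjusted 0.120) and r = -0.73 without the 2 farthest libraries, on the few counts of EGR3. EGR1 and EGR3 had r = 0.85 (exact permutation p = 0.0121, adjusted 0.0797) but rho = 0.45 (exact permutation p = 0.267, adjusted 0.519), and r fell to 0.36 without the 2 farthest libraries, so that this relation rests on those. No pooled value is given for IER2 and IER3, whose treatments do not overlap, and the IER2 pairs counted above include that treatment difference.

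By a rule based on Pearson's r over the 8 libraries among 10456 other genes averaging 5 CPM or more, the 5 genes most like EGR1 were the adenylate cyclase gene ADCY3, NACC1, SIK1, BHLHE40 and NAT8L, with r from 0.95 down to 0.93. SIK1, a kinase gene induced by cyclic AMP, and BHLHE40, which encodes a transcriptional repressor, are early response genes as well. JUN stood at rank 42 of this order, FOSB at 98, FOS at 388 and ATF3 at 2159. For ZFP36L1 the 5 were RUNX3, ATXN2L, KIF18B, RBMS2 and WDR7, with r from 0.98 down to 0.95, and the same 4 early genes stood at ranks 1971 to 6454. With only 8 libraries and so many genes, high values of r occur in number, and these are given as a description.

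**Figure D5:**
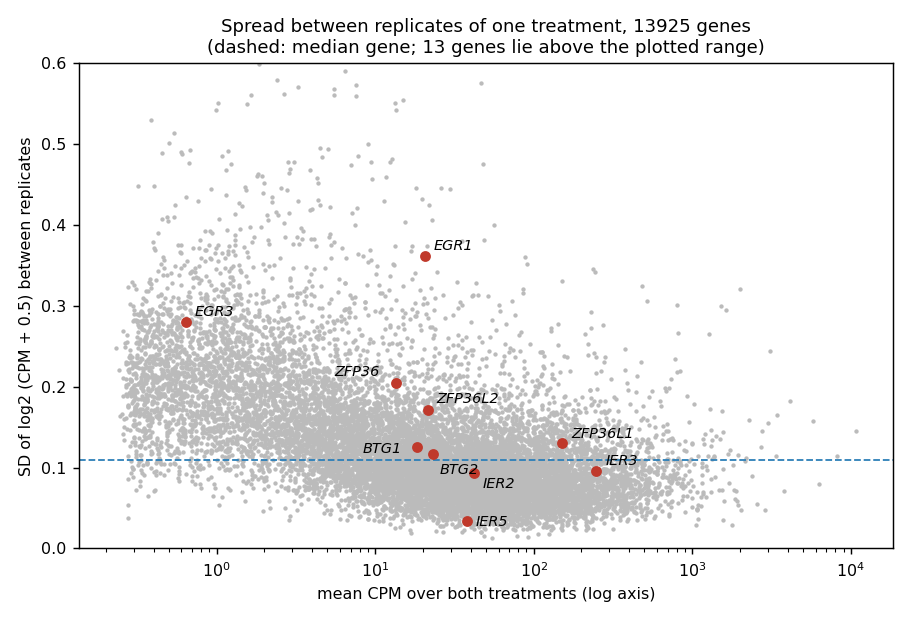
SD of log2 (CPM + 0.5) between replicates of one treatment (vertical axis) against the mean CPM (horizontal axis, log scale) for 13925 genes in grey, with the 10 genes in red and the median gene as a dashed line. EGR1 lies far above genes of its level, at the 98.8th percentile of all genes, and IER5 at the 1.01st.

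Genes that act with the 10 were read from the same fit, and 0 of them passed an adjusted p of 0.05 in edgeR. Over all genes tested, 3.26% had an unadjusted p under 0.05 and were higher, and 0.919% were lower. Of 7 relatives of the EGR, IER and BTG genes, 5 could be tested. TOB1, a BTG family member that also binds CCR4-NOT, was the one with an unadjusted p under 0.05, going from 25.3 ± 2.73 to 30.2 ± 3.86 CPM (SD, n = 4 each). The difference, 0.26 on the log2 scale, had a standard error of 0.0945 (unadjusted p = 0.0166 by edgeR). Among 11 genes of the CCR4-NOT complex, with a median log2 fold change of 0.035, the deadenylase genes CNOT6 (0.32, unadjusted p = 0.0215 by edgeR) and CNOT6L (0.21, unadjusted p = 0.0227 by edgeR) were higher and 0 were lower at that p. Their values overlapped between treatments, with 68.2 to 81.6 CPM for CNOT6 with DMSO and 72.2 to 108 CPM with lenalidomide. Among 5 other binders of AU-rich elements, HNRNPD, which encodes AUF1, had a log2 fold change of 0.22 (unadjusted p = 0.0185 by edgeR), and the median of the 5 was 0.058.

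On the side of the signal, 13 feedback genes of ERK had a median log2 fold change of -0.035, with 1 lower and 0 higher at an unadjusted p of 0.05. That gene was DUSP1, a phosphatase gene that is itself an early response gene, going from 9.24 ± 2.09 to 7.06 ± 1.24 CPM (SD, n = 4 each), or by -0.39 on the log2 scale (unadjusted p = 0.0224 by edgeR). Of 8 genes for SRF, its partners and the EGR corepressors NAB1 and NAB2, ELK1 alone had such a p, going from 31.4 ± 0.884 to 28.6 ± 0.949 CPM (SD, n = 4 each, log2 fold change -0.14, unadjusted p = 0.0242 by edgeR). All 7 AP-1 genes were below 0, with a median of -0.23, and 4 of them had an unadjusted p under 0.05. Over all genes tested, 48.7% were below 0 and 0.919% were lower at such a p. These lists were chosen with earlier results of these data known. FOS had a log2 fold change of -1.40, FOSB of -0.97 and JUN of -0.48, each larger in size than that of any of the 10 genes. Of 20 other early response genes 16 were below 0, with a median of -0.11, and KLF10 (-0.18, unadjusted p = 0.0314 by edgeR) and RHOB (-0.13, unadjusted p = 0.0481 by edgeR) were lower at that p.

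Known targets of ZFP36 proteins could be tested in 14 of 18 cases, and the cytokine genes TNF, CSF2 and IL6 had at most 2 counts in a library. The median log2 fold change of the 14 was -0.0089, with 6 above and 8 below 0. BIRC3, an inhibitor of apoptosis, was the one with an unadjusted p under 0.05, and it was lower with lenalidomide, going from 6.92 ± 0.753 to 5.88 ± 0.331 CPM (SD, n = 4 each, log2 fold change -0.24, unadjusted p = 0.0303 by edgeR). The target transcripts VEGFA (-0.034) and CCND1 (0.011) lay close to 0 in log2 fold change.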

How the data were processed

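Total RNA libraries (ScriptSeq v2) of Hct116 cells, 4 per treatment, were grouped by their treatment labels. The authors aligned reads to hg19 with QuasR at default parameters, allowing spliced alignment, counted them per gene of the UCSC known genes, and deposited raw counts per gene and library with the exonic width of each gene. The submitters' processing notes name bcl2fastq 2.17. Strand settings are not given in the sources used here. Duplicate molecules cannot be told from independent ones in such counts, and intervals include the spread between replicates.

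The deposited counts were taken into edgeR 4.0.16 (R 4.3.3). Genes passing filterByExpr (minimum count 10, minimum total 15) were scaled by TMM factors and compared with the quasi-likelihood test, with no covariate and Benjamini-Hochberg adjustment over all genes tested (threshold 0.05). A common dispersion of 0.00573 was estimated. CPM is the count divided by library size and TMM factor. Exact permutation tests of single genes and of correlations were run on log2 (CPM + 0.5). Those of ratios were run on log2 ratios of raw counts, and those of the ZFP36 family shares on percentages of CPM per kb. Spearman's rho and the adjustment of ratio and correlation p-values used scipy 1.17.1. The test was also tried on simulated counts, drawn with the dispersions estimated from these data. Positions and 3′ UTRs come from GENCODE annotation on GRCh37, and promoters from RefSeq (GRCh38.p14).

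The 10 genes and all lists were chosen with earlier results of these data known. Beside the 10 genes, the text names the 5 genes most correlated with EGR1 and with ZFP36L1, and up to 3 genes per list with an unadjusted p under 0.05, or the one with the smallest p. ATF3, EGR2, EGR4, VEGFA, CCND1, TNF, CSF2, IL6, PTPRC, CD3E, CD68, COL1A1, ACTA2 and VWF were named after their values were seen. Alternatives were RLE scaling, DESeq2 1.42.0, the likelihood ratio test, 2 other count filters, an adjusted p of 0.1, the replicate block, thinned libraries and each library left out.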

Additional observations from a re-analysis of the deposited data

Results flagged for a closer look

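For each of the 10 genes, the highest and the lowest library of each treatment was compared with the other 3 of that treatment by Dixon's criterion. Of 20 groups of 4 libraries, 1 held a library beyond the 95% critical value, and chance gives about 1 in 20. It was BTG1 in DMSO replicate 3, at 15.8 CPM where the other DMSO libraries lay between 19.1 and 19.8 CPM. Without this library the log2 fold change of BTG1 was -0.099, against -0.027 with it. The same library held the highest DMSO values of EGR1 and EGR3, which stayed within the criterion.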

How the results depend on the processing

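None of the 10 genes had an adjusted p under 0.05 under any alternative, nor under 0.1 in the test as reported. The number of genes called in the whole table was 2, and it became 7 in DESeq2, 12 by likelihood ratio, 4 when all genes with a count were tested and 6 under the replicate block, and lay between 1 and 2 when each library was left out. Same-number libraries correlated between -0.0075 and 0.31 over all genes once treatment means were removed, and libraries of different numbers between -0.34 and 0.18. The value of 0.31 was that of replicate 4. Only 3 of the 8 libraries correlated best with their own number, so a pairing of all libraries by number was not seen. Over the 10 genes the same-number values ran from -0.069 for replicate 1 to 0.70 for replicate 2. With the replicate block the median log2 fold change of the 10 genes was -0.12, and no call among them changed. The median of the 10 lay between -0.15 and -0.10 under all alternatives. Of 150 fitted log2 fold changes of single genes, 144 kept their direction and their side of the threshold, and 6 turned. IER5 turned with thinned libraries (0.018) and ran from -0.022 to 0.0070 when each library was left out. Over the same fits BTG1 ran from -0.099 to 0.0056, ZFP36L1 from -0.037 to 0.10 and ZFP36L2 from -0.0095 to 0.14, and the last pair turned without lenalidomide replicate 4. The cause was not tested. IER2, IER3 and ZFP36 kept an unadjusted p under 0.05 in all 15 alternatives. EGR1 lost it in 8, with an unadjusted edgeR p of 0.0533 when every library had at least 10 counts, 0.0522 with thinned libraries and 0.247 without DMSO replicate 3, and one of 0.121 in DESeq2. EGR3, with 14 to 39 counts, ran from -0.59 to -0.11 when each library was left out.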
